A study of Caenorhabditis elegans with 6 samples.

Results

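The 74 measured cytochrome P450 genes of Caenorhabditis elegans and emb-8, which encodes their electron donor, are described here across worms raised on tyrosol and worms raised on vehicle. The genes were taken by name: every gene that the array annotation calls cyp- with a number, the P450 gene daf-9, and emb-8. This gave 75 genes of 17118 measured, each read on 1 probe set, the brightest over the 6 arrays of those naming that gene alone. RefSeq (assembly WBcel235, used for names) lists 82 such genes, and the other 7 were not analysed here. The rule uses names alone, but this group of genes was chosen with earlier results of these data known.

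Whole adult worms of the strain fer-15 (b26) were compared, 3 arrays from worms on 250 µM tyrosol and 3 arrays from control worms on the ethanol vehicle. Tyrosol is a phenolic alcohol of olive oil. Both groups carried the fer-15 mutation, which leaves sperm unable to fertilise at the restrictive temperature, were raised from the egg stage at 25 °C on E. coli OP50 with 0.1% ethanol, and were collected on day 4 of adulthood. By its title the study looked for expression patterns behind a lifespan extension by tyrosol. The labels call the arrays replicates without saying that they came from separate cultures, so the p-values rest on array-to-array spread that may be technical. The values are log2 expression values made by RMA, an array method that corrects background, equalises the arrays and summarises each probe set. Since RNA came from whole animals, fewer cells of a type and less RNA per cell cannot be told apart.

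Cytochrome P450 enzymes are haem proteins that add an oxygen atom to small lipophilic molecules. Those in the endoplasmic reticulum receive their electrons from NADPH-cytochrome P450 reductase, the product of emb-8. In worms some act on the body's own lipids, making steroid hormones, fatty acid signals or the lipid layer of the eggshell, and others, many of them in the intestine, are induced by foreign compounds. The cyp-35A genes are well known for such induction.

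No P450 gene was called higher or lower with tyrosol, and differences were small in every subfamily. The rank product, the test the series' design text names, called 0 of the 75 genes higher and 0 lower at an estimated false discovery rate under 0.05. Over all genes it called 0.859% higher and 0.0234% lower. Limma, a linear model fitted across all probe sets with Benjamini-Hochberg adjustment, also called 0 of the 75 in each direction, where it called 0.339% of all genes higher and 0.0117% lower. At an unadjusted limma p under 0.05 there were 4 of the 75, or 5.33%, against 7.21% of all genes. The smallest limma adjusted p among the 75 was 0.377, for cyp-35B1. The smallest false discovery rate was 0.172 for a higher level, of cyp-14A1, and 0.505 for a lower level, of cyp-35A3.

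The median difference of the 75 genes, tyrosol minus control, was -0.028 on the log2 scale, against -0.017 over all genes. It was above 0 for 29 genes (38.7%) and below 0 for 46, and 44.7% of all genes lay above 0. The differences ran from -0.37 to 0.49, and 69 of the 75 lay within 0.25 of 0 (92.0%, against 89.3% of all genes). In 5 genes (6.67%) every tyrosol value lay above every control value, and in 6 genes (8.00%) every tyrosol value lay below. Over all genes these shares were 6.92% and 6.78%. The counts of genes without overlap were thus close to those of the whole array in both directions. The 5 were cyp-35B1, cyp-34A8, cyp-33D1, cyp-29A2 and cyp-14A2. The 6 were cyp-34A3, cyp-13B2, cyp-35A4, cyp-34A6, cyp-33A1 and cyp-43A1.

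**Figure D1:**
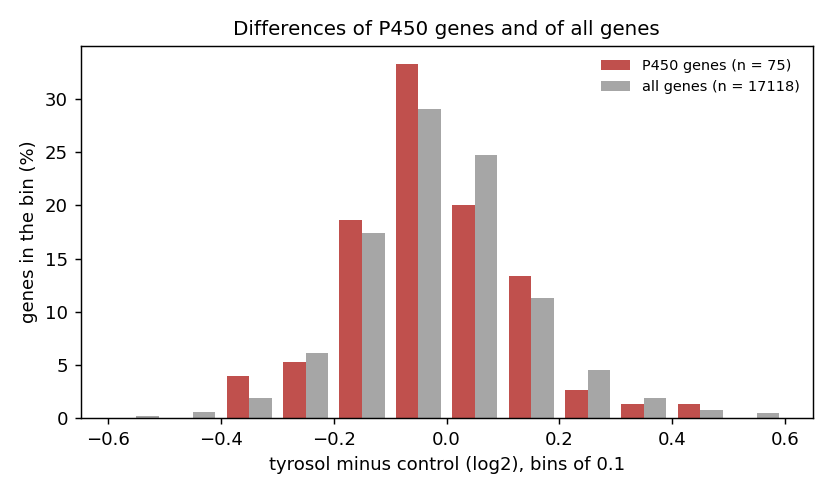
Share of genes (y axis, percent) by difference between tyrosol and control worms (x axis, log2, bins of 0.1), for the 75 genes in red and for all 17118 genes in grey. Both distributions peak just below 0, no P450 gene lies beyond -0.37 or 0.49, and 1.09% of all genes fall outside the axis.

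The intervals bound the size of the differences. The 95% interval of the limma difference lay wholly between -1 and 1, a 2-fold change either way, for 74 of the 75 genes (98.7%). It lay within 0.5 either way for 64 (85.3%). Over all genes these shares were 98.6% and 80.3%, so the first was near that of the whole array. Among the 75, emb-8 alone passed the wider bound, at -1.07 to 0.32. These limits concern the probe sets' signal. Of the 75 probe sets, 43 read at or below 2.58, the median level of all probe sets tested, where a change in transcript moves the signal less. The array's 5 probe sets for yeast transcripts, which have no worm target, read 0.94 to 3.18. Among the 32 genes read above that median the median difference was -0.076, against -0.021 for all genes above it. Among the 43 fainter genes it was -0.011, against -0.015.

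**Figure D2:**
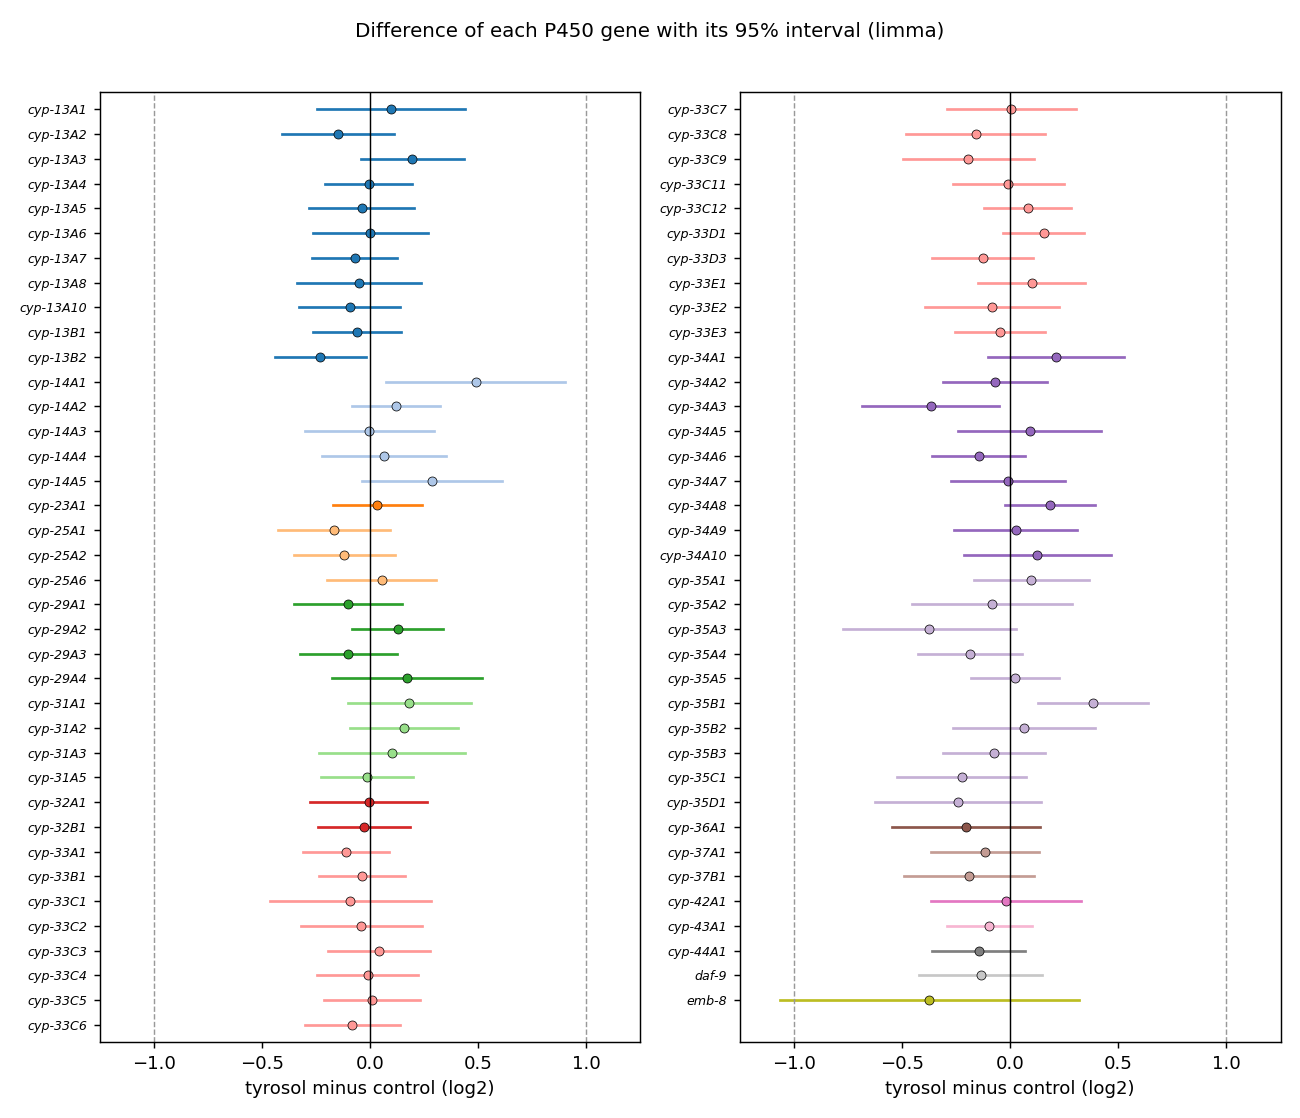
Difference between tyrosol and control worms (x axis, log2) for each of the 75 genes, ordered by family and coloured by family; points are limma estimates from 3 arrays each and bars are 95% intervals. Dashed lines mark a 2-fold change, and the bar of emb-8 alone reaches past one, to -1.07.

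The cyp-35 family holds the P450 genes that respond most to foreign compounds in worms, and its members went in different directions. Of 10 measured members 4 differed by more than 0 and 6 by less, with a median of -0.080. The 5 cyp-35A genes, whose products also bear on fat storage, had a median of -0.084 and a range of -0.37 to 0.098. For cyp-35A3 the 3 tyrosol arrays read 5.18, 5.84 and 5.19, against 5.75, 5.80 and 5.78 on the control arrays. Tyrosol replicates 1 and 3 were below all controls, and tyrosol replicate 2 was above them. The difference was -0.37 (SE 0.17, limma adjusted p = 0.724). Without tyrosol replicate 2 it was -0.59 (SE 0.0906), still not called by limma (adjusted p = 0.0585) or by the rank product (false discovery rate 0.0552).

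In cyp-35A2 and in cyp-35C1, another xenobiotic-induced gene of the family, tyrosol replicate 2 was likewise the highest tyrosol array. For cyp-35A2 the tyrosol arrays read 5.90, 6.47 and 5.92, against 6.15, 6.30 and 6.09 on the control arrays, a difference of -0.084 (SE 0.16). For cyp-35C1 they read 6.89, 7.20 and 6.75, against 7.18, 7.06 and 7.27, a difference of -0.22 (SE 0.13, limma adjusted p = 0.773). In both genes tyrosol replicates 1 and 3 lay below all controls and tyrosol replicate 2 lay among or above them. Without that array the differences were -0.27 (adjusted p = 0.480) and -0.35 (adjusted p = 0.357). The second probe set of cyp-35C1 gave -0.092 (SE 0.10). In cyp-35A4 every tyrosol value lay below every control value, at 2.85, 2.99 and 2.95 against 3.00, 3.07 and 3.27. Its difference was -0.19 (SE 0.10, adjusted p = 0.769), and -0.22 without tyrosol replicate 2. The fainter cyp-35A5 differed by 0.022 (SE 0.0894). In cyp-35A1, also faint, tyrosol replicate 2 was instead the lowest tyrosol array, with 1.05, 0.96 and 1.24 against 1.04, 0.83 and 1.09, and the difference was 0.098 (SE 0.12).

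In the opposite direction stood cyp-35B1, a known target of DAF-16, the transcription factor downstream of insulin signalling. Its tyrosol arrays read 3.24, 2.99 and 2.91, against 2.59, 2.71 and 2.70 on the control arrays. These values are faint: all but 3.24 lie within the range of the yeast probe sets, 0.94 to 3.18. All tyrosol values exceeded all control values, by a difference of 0.38 (SE 0.11, 1.30-fold), and the call was not made (limma adjusted p = 0.377, 0.352 with the replicate number as a block). For cyp-35B2 the difference was 0.065 (SE 0.14, 95% interval -0.26 to 0.39), and for cyp-35B3 it was -0.075 (SE 0.10). Another DAF-16 target, cyp-34A9, differed by 0.026 (SE 0.12), with 4.52, 4.87 and 4.49 on the tyrosol arrays and 4.66, 4.50 and 4.64 on the control arrays. Neither DAF-16 target was called. For cyp-35D1, which takes part in the metabolism of the anthelmintic thiabendazole, the tyrosol arrays read 1.66, 1.60 and 1.67, against 1.76, 2.29 and 1.61. Control replicate 2 alone stood high, and the difference was -0.24 (SE 0.17). The values of cyp-35D1 all lie within the range of the yeast probe sets.

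The cyp-14A subfamily had a median difference of 0.12, and 4 of its 5 members lay above 0. Of the 5, 2 read above 2.58, the median level of all probe sets tested. For cyp-14A1, the largest positive difference of the 75 genes, the tyrosol arrays read 2.53, 2.04 and 2.52, against 2.19, 1.77 and 1.66. These values are faint: all lie within the range of the yeast probe sets, 0.94 to 3.18. Tyrosol replicate 2 read below control replicate 1, so the groups overlapped. The difference was 0.49 (SE 0.18, 1.40-fold, limma adjusted p = 0.571, 0.292 with the block). For cyp-14A5 the tyrosol arrays read 4.36, 4.16 and 4.58, against 4.02, 4.29 and 3.93. The difference was 0.29 (SE 0.14, adjusted p = 0.740), and again tyrosol replicate 2 was the lowest of its group. That array was the lowest tyrosol array in all 5 cyp-14A genes, but in cyp-14A3 only at 2.951 against 2.952 in tyrosol replicate 1. Extreme values were common on tyrosol replicate 2: it lay above or below all other 5 arrays in 44.03% of all genes. How often it was the lowest tyrosol array over all genes was not counted. The mean level of the subfamily relative to its control mean was 0.24, 0.023 and 0.32 in tyrosol replicates 1, 2 and 3, against 0.0010, 0.058 and -0.059 in control replicates 1, 2 and 3. Without tyrosol replicate 2 cyp-14A1 differed by 0.65 (adjusted p = 0.226) and cyp-14A5 by 0.39 (adjusted p = 0.420).

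**Figure D3:**
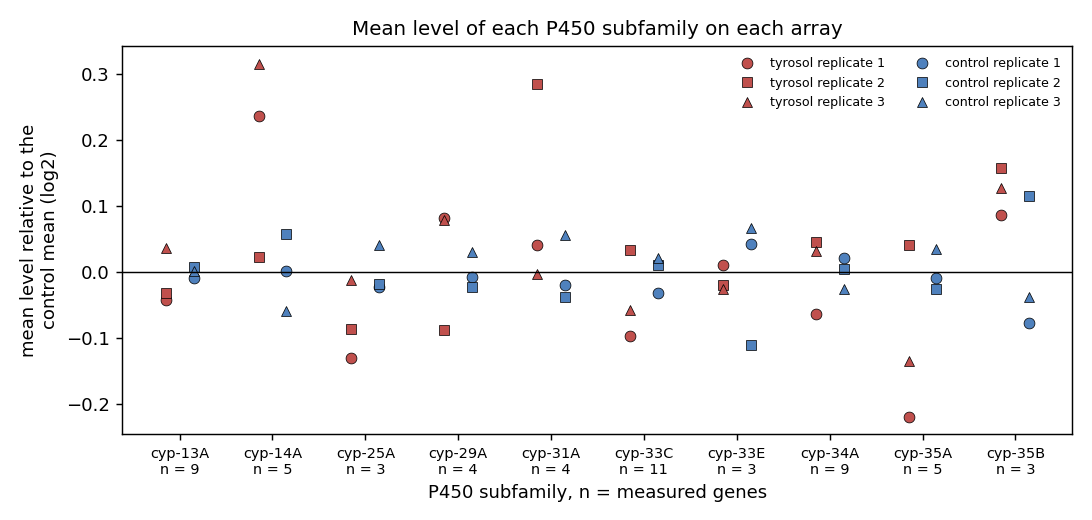
Mean level of each subfamily with at least 3 measured genes (x axis) on each array, relative to the mean of the 3 control arrays (y axis, log2), tyrosol in red and control in blue, with a symbol for each replicate number. The cyp-14A means of tyrosol replicates 1 and 3 are 0.24 and 0.32, the cyp-35A means of the same arrays are -0.22 and -0.14, and in both subfamilies tyrosol replicate 2 lies near 0.

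The other large subfamilies stayed near 0. The 9 cyp-13A genes, a largely tandem group that includes the rifampicin-induced cyp-13A7, had a median of -0.038 and a range of -0.15 to 0.20, with all 9 read below the median level. The gene cyp-13A7 itself differed by -0.071 (SE 0.0854), and cyp-13A3 by 0.20 (SE 0.10, adjusted p = 0.755). The related cyp-13B2 was lower on every tyrosol array, at 3.25, 3.14 and 3.27, against 3.45, 3.38 and 3.53, with a difference of -0.23 (SE 0.0917, adjusted p = 0.633). The 11 cyp-33C genes had a median of -0.011 and the 9 cyp-34A genes one of 0.026. No member of these 3 subfamilies was called.

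Within cyp-34A the members ran from -0.37 to 0.21, the widest range among the subfamilies with at least 3 measured genes. At the low end was cyp-34A3, which RefSeq lists as a pseudogene. Its tyrosol arrays read 1.82, 2.23 and 2.24, against 2.38, 2.63 and 2.38, without overlap, a difference of -0.37 (SE 0.14, limma adjusted p = 0.593). At the high end was cyp-34A1, with 1.74, 2.25 and 1.93 on the tyrosol arrays, against 1.81, 1.81 and 1.67, a difference of 0.21 (SE 0.14). Its groups overlapped, and tyrosol replicate 2 was the highest array. The values of cyp-34A3 and cyp-34A1 are faint, all within the range of the yeast probe sets, 0.94 to 3.18. The gene cyp-34A8 was higher on every tyrosol array, at 5.05, 5.14 and 5.17, against 4.88, 5.02 and 4.91, a difference of 0.18 (SE 0.0905, adjusted p = 0.740). Its direct neighbour cyp-34A9 differed by 0.026, as given above.

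Many P450 genes lie side by side. In the RefSeq order 34 of the 75 genes fall into 10 runs of adjacent P450 genes with at least 2 measured. The differences had a single sign in 2 runs, cyp-25A1 with cyp-25A2 and cyp-33E2 with cyp-33E3, and mixed signs in the other 8. In the run of cyp-34A5 to cyp-34A10 there were 4 genes above 0 and 2 below. In the run that joins cyp-35A5 to the 3 cyp-35B genes there were 3 above and 1 below, and in the longest cyp-13A run 2 above and 5 below.

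Among P450 genes with a place in lipid signalling, cyp-29A3 and cyp-33E2 make signalling products from polyunsaturated fatty acids. They differed by -0.0995 (SE 0.0978) and -0.085 (SE 0.13). The cyp-29A subfamily had a median of 0.015, and its member of largest limma statistic, cyp-29A2, read 5.62, 5.51 and 5.71 on the tyrosol arrays, against 5.46, 5.51 and 5.50. The difference of cyp-29A2 was 0.13 (SE 0.0914, adjusted p = 0.820), and the lowest tyrosol and highest control value barely differed. The gene with the largest limma statistic of the cyp-33 family was cyp-33D1, with 1.83, 1.82 and 1.83 against 1.67, 1.66 and 1.69. Its groups were far apart for their own spread, but the difference was 0.15 on a faint probe set (SE 0.0823, adjusted p = 0.755). For cyp-36A1, which acts downstream of the hypoxia pathway of EGL-9 and HIF-1, the difference was -0.20 (SE 0.15).

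The hormone branch is represented by daf-9, whose product makes the dafachronic acids that bind the nuclear receptor DAF-12. The tyrosol arrays read 2.29, 2.62 and 2.42, against 2.40, 2.71 and 2.62 on the control arrays. The groups overlapped, and the difference was -0.14 (SE 0.12, 95% interval -0.42 to 0.15, limma adjusted p = 0.866). Around it, 9 of 10 listed genes of dafachronic acid synthesis, sterol transport and DAF-12 were measured, with a median of 0.023 and 6 above 0. Both tests called 0 of these genes higher and 0 lower. Over all genes the rank product called 0.859% higher and 0.0234% lower, and limma 0.339% and 0.0117%, so a list this short would rarely hold a call. The largest statistic was that of hsd-1, a hydroxysteroid dehydrogenase gene placed in this pathway, with 2.17, 2.25 and 2.02 against 2.57, 2.92 and 2.47. It was lower on every tyrosol array, with a difference of -0.51 (SE 0.13, adjusted p = 0.309), and was not called. In the same list dhs-16, a short-chain dehydrogenase gene of the pathway, was higher on every tyrosol array, at 2.95, 3.11 and 2.85, against 2.57, 2.71 and 2.25. Its difference was 0.46 (SE 0.14, adjusted p = 0.393), and it was not called. The values of daf-9, hsd-1 and dhs-16 are faint, all within the range of the yeast probe sets, 0.94 to 3.18.

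The eggshell branch comprises cyp-31A2 and cyp-31A3, which with emb-8 are needed for the lipid layer of the eggshell. For cyp-31A2 the tyrosol arrays read 7.50, 7.73 and 7.43, against 7.39, 7.31 and 7.48, a difference of 0.16 (SE 0.11). For cyp-31A3 they read 6.33, 6.73 and 6.16, against 6.37, 6.29 and 6.25, a difference of 0.10 (SE 0.15). In both, tyrosol replicate 2 was the highest of the 6 arrays, and without it cyp-31A3 stood at -0.062. The pseudogene cyp-31A1 showed the same array as the highest, at 3.50, with a difference of 0.18 (SE 0.12). The brightest member, cyp-31A5, did not follow: it read 7.74, 7.70 and 7.74 on the tyrosol arrays, against 7.70, 7.66 and 7.85, a difference of -0.012 (SE 0.0922), and tyrosol replicate 2 was its lowest tyrosol array. Without tyrosol replicate 2 the median of the 4 genes was 0.033, against 0.13 with it, and without both replicate 2 arrays it was -0.0042. The cyp-31A genes are close copies, and cyp-31A2 was read on a cross-hybridising probe set (suffix _x_at), so they cannot be told apart with certainty. Over the 4 genes the mean relative to control was 0.040, 0.29 and -0.0023 in tyrosol replicates 1, 2 and 3, against -0.020, -0.037 and 0.057 in control replicates 1, 2 and 3. The mean level of 6 oocyte and germ line markers, none of them called, was 9.17, 8.59 and 9.16 on the tyrosol arrays and 9.20, 8.98 and 9.32 on the control arrays, lowest on tyrosol replicate 2. Its part in the cyp-31A values was not tested.

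The reductase gene emb-8 differed on 1 array. The tyrosol arrays read 5.54, 4.34 and 5.62, against 5.53, 5.54 and 5.55 on the control arrays. Tyrosol replicate 2 stood far below the other 5 arrays, which lay close together. The mean was 5.17 ± 0.72 in tyrosol worms and 5.54 ± 0.0090 in control worms (SD, n = 3 each). The difference was -0.37 (SE 0.30, limma adjusted p = 0.846), and without tyrosol replicate 2 it was 0.038 (adjusted p = 0.935). Of the 75 genes, emb-8 was the only one on which this array lay more than 0.5 outside the other 5, which 1.96% of all genes did. No other tyrosol array did so for any of the 75, and control replicate 2 did so for cyp-35D1. By any amount, tyrosol replicate 2 lay outside the other 5 arrays in 31 of the 75 genes (41.33%), against 44.03% of all genes. Being the highest or lowest of the 6 arrays, as in cyp-31A2 and cyp-31A3, was thus common for this array.

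**Figure D4:**
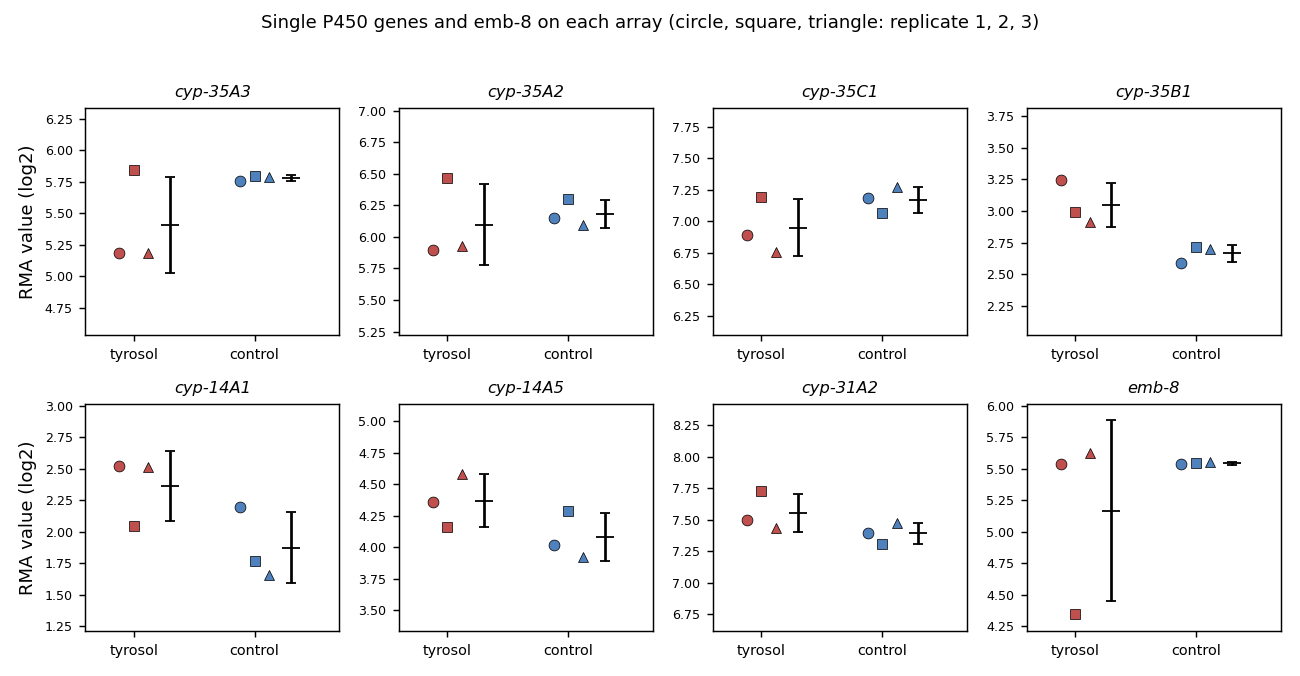
RMA values (y axis, log2) on the 3 tyrosol arrays in red and the 3 control arrays in blue for cyp-35A3, cyp-35A2, cyp-35C1, cyp-35B1, cyp-14A1, cyp-14A5, cyp-31A2 and emb-8, with the mean and SD of each group; every panel spans the same number of log2 units. In emb-8 tyrosol replicate 2 lies at 4.34 and the other 5 arrays between 5.53 and 5.62, and in cyp-35A3 tyrosol replicate 2 lies at 5.84 with the controls while tyrosol replicates 1 and 3 lie at 5.18 and 5.19.

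Tyrosol replicate 2, the array that differed from its group in emb-8, cyp-31A3 and cyp-35A3, also stood apart in its control transcripts. Over 4 worm transcripts read at both ends, actin, catalase, GAPDH and ubiquitin, the 3′ probe set exceeded the 5′ one by a mean of 2.89, 3.69 and 3.16 in tyrosol replicates 1, 2 and 3, and by 2.83, 3.15 and 2.64 in control replicates 1, 2 and 3. The excess was thus largest on tyrosol replicate 2. The 4 poly-A control transcripts, which are not worm genes, were read at the 3′ end and the middle. Their 3′ excess on tyrosol replicate 2 was the largest of the 6 arrays for dap, thr and phe (1.68, 2.64 and 2.22). For lys it was the smallest (0.37). The part of these control differences in the P450 values was not tested. For emb-8 and cyp-31A3 the difference kept neither its sign nor its size without this array, and for cyp-35A3 it grew.

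The remaining named members showed little. The abundant cyp-25A2 read 6.60, 6.89 and 6.78 on the tyrosol arrays, against 6.88, 6.89 and 6.87, a difference of -0.12 (SE 0.10). Its neighbour cyp-25A1 differed by -0.17 (SE 0.11). The mitochondrial-type P450 gene cyp-44A1 differed by -0.15 (SE 0.0935), with 6.83, 6.69 and 6.65 against 6.85, 6.93 and 6.83. None of these was called, with limma adjusted p = 0.857 for cyp-25A2 and 0.814 for cyp-25A1.

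Genes that serve the P450 enzymes were likewise not called. Of 9 listed genes of cytochrome b5, haem transport and haem supply 8 were measured, with a median of 0.032, and the largest statistic was that of mrp-5, the intestinal haem exporter, at 0.32 (SE 0.10, adjusted p = 0.489). The 6 genes that make polyunsaturated fatty acids or open their epoxides had a median of 0.047, and the epoxide hydrolase gene ceeh-1 differed by 0.14 (SE 0.11). Of 15 listed transcription regulators tied to P450 genes 14 were measured, with a median of -0.077 and 5 above 0. The largest statistic there was that of mdt-15, a Mediator subunit needed for many genes of fat metabolism and detoxification. It read 4.01, 4.26 and 4.34 on the tyrosol arrays, against 4.72, 5.09 and 4.57, lower on every tyrosol array, with a difference of -0.59 (SE 0.15, adjusted p = 0.292, false discovery rate 0.342). The rank product and limma called 0 genes of these 3 lists in each direction. Over all genes the rank product called 0.859% higher and 0.0234% lower, and limma 0.339% and 0.0117%. At such shares lists this short would rarely hold a call.

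Markers of tissues were read on the same arrays. Of 7 measured intestine markers, which include the listed regulator elt-2, 0 were called and their median difference was -0.060. Their mean level was 7.21 to 7.30 on the tyrosol arrays and 7.32 to 7.37 on the control arrays. The largest statistic among them was that of elt-2, at -0.29 (SE 0.0882). Markers of epidermis, muscle, neurons, pharynx and germ line held 0 calls by the rank product and by limma. Their median differences were 0.042, 0.015, -0.014, 0.17 and -0.21 in that order. Of the 6 germ line markers 1 lay above 0, and of the 4 pharynx markers 3 did. The largest statistics in the same order were those of col-19 (0.13), act-4 (0.35), snb-1 (0.13), myo-1 (0.46) and puf-5 (-0.27). Of 6 sperm markers 5 were called higher by the rank product and 2 by limma, with a mean level of 3.96 to 4.20 on the tyrosol arrays and 2.49 to 3.24 on the control arrays. Of the 5, msp-19, msp-31, msp-38 and gsp-3 were read on cross-hybridising probe sets, so their signals may not be separate, and ssp-16 was not. The part of these tissue differences in the P450 values was not tested.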

How the data were processed

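The authors deposited log2 values for each probe set on each array, which per the series' design text they made with RMA from Affymetrix C. elegans Genome Arrays (version not given in the sources used). The RNA integrity number exceeded 7. Of 22625 probe sets the 77 control probe sets were left out of the tests. Names came from the platform annotation, updated through RefSeq (WBcel235): 20766 probe sets name 1 gene, 887 several and 895 none. The 75 genes have 80 probe sets that name 1 gene; 5 are represented by cross-hybridising ones (_x_at) and 7 by ones shared by several transcripts (_s_at). 2 more probe sets name several P450 genes and were not used. On their second probe sets cyp-13B1, cyp-23A1, cyp-32A1 and cyp-42A1 differed by -0.27, -0.071, -0.22 and 0.18. On the probe sets used they differed by -0.059, 0.035, -0.0055 and -0.020. For cyp-13B1 and cyp-32A1 the second probe set had every tyrosol value below every control value. No second probe set was called, but the counts without overlap depend on the probe set chosen. The arrays' number limits the precision.

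The rank product (9 tyrosol-minus-control differences, 100 within-array permutations, called under 0.05) was programmed in Python 3.11.15 with numpy 2.4.6. Limma 3.58.1 in R 4.3.3 (lmFit, eBayes, two-sided) gave differences, standard errors (moderated), 95% intervals and adjusted p-values. Both were fitted on all 22548 probe sets and tested on simulated data. The replicate number was also fitted as a block. Deviations of same-numbered arrays from their group means correlated at 0.11, 0.37 and 0.26. Those of arrays with different numbers ran from -0.37 to 0.28, the highest between tyrosol replicate 1 and control replicate 3. Deviations within a group sum to 0, so these correlations are not independent.

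The genes and lists were chosen with earlier results of these data known. Genes were named by rule: any called, the 6 largest and 6 smallest differences, the largest limma statistic of each family with at least 3 genes, and a list by role; others were named after their values were seen. Median summaries of lists carry no test. Alternatives were single arrays left out, the block, averaging the probe sets of a gene, no cross-hybridising probe sets, 2 rescalings, a filter on dim probe sets, another seed and a trended prior.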

Additional observations from a re-analysis of the deposited data

How the results depend on the processing

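The rank product and limma called 0 of the P450 genes under every alternative that was run, with the replicate block and without each array in turn included. The smallest limma adjusted p ran from 0.0585, for cyp-35A3 without tyrosol replicate 2, to 0.797. Between 2 and 8 of the genes had an unadjusted limma p under 0.05. The 8 of 75 came without tyrosol replicate 2, where 2068 of all 22548 probe sets had such a p. With all arrays there were 4 of the 75, and 1652 of all probe sets. With the replicate block the smallest adjusted p was 0.292, and the block changed no call of a P450 gene. Limma's calls over all probe sets came to 163 with the block and 76 without it. Without control replicate 1 or 3, or tyrosol replicate 1 or 3, limma called 0 of all probe sets, with 1228 to 1707 at an unadjusted p under 0.05. The median difference of the 75 genes lay between -0.043 and -0.022 without single arrays and was -0.076 over the 32 genes kept by the filter on dim probe sets. That filter also gave 0.13 for cyp-29A, -0.085 for cyp-33C, -0.19 for cyp-35A and 0.38 for cyp-35B, where 1 gene was left, since it leaves out members. Without single arrays the median of cyp-13A ran from -0.080 to -0.0074 and that of cyp-35A from -0.22 (tyrosol replicate 2 left out) to 0.015 (tyrosol replicate 1 left out). The small medians of cyp-33C (-0.050 to 0.037), cyp-33E (-0.074 to 0.015), cyp-34A (-0.026 to 0.067) and cyp-35B (-0.043 to 0.20) changed sign over single arrays left out. Those of cyp-29A (0.0011 to 0.063), cyp-31A (0.033 to 0.22), cyp-14A (0.084 to 0.17) and cyp-25A (-0.14 to -0.040) did not. Without both replicate 2 arrays, an alternative chosen after seeing the data, the medians were 0.0093 for cyp-13A, -0.080 for cyp-33C and -0.21 for cyp-35A; the cause was not tested. Of the 29 named genes 7 changed sign, none of them called. Without single arrays cyp-31A3 ran from -0.062 to 0.23, cyp-33E2 from -0.19 to 0.015, cyp-34A9 from -0.095 to 0.096, cyp-35A2 from -0.27 to 0.015, cyp-35A5 from -0.013 to 0.058, cyp-35B2 from -0.047 to 0.20 and emb-8 from -0.60 to 0.038. The sign turned without tyrosol replicate 2 for cyp-31A3, cyp-33E2, cyp-34A9, cyp-35B2 and emb-8, without control replicate 2 for cyp-34A9 and cyp-35A5, without tyrosol replicate 1 for cyp-35A2 and without tyrosol replicate 3 for cyp-35A2 and cyp-35A5. Without both replicate 2 arrays cyp-31A3 stood at -0.066, cyp-34A9 at -0.15, cyp-35A5 at -0.00043 and emb-8 at 0.038.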
